A study of Neurospora crassa with 30 samples.

Results

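The genes of ethanol fermentation described here are 4 genes of the filamentous fungus *Neurospora crassa*, chosen by their enzyme names: *cfp* (NCU02193, synonym *pdc-1*), which encodes pyruvate decarboxylase, the alcohol dehydrogenase genes *adh-1* (NCU01754) and NCU02476, and the aldehyde dehydrogenase gene NCU03415. They are 4 of the 9758 genes in the count tables, and all 4 were among the 8501 genes that passed the filter on low counts. RNA-seq was done on mycelia of the wild-type strain FGSC 2489, with no mutant allele or added gene, after cultures pregrown for 16 h at 25 °C in constant light in medium with 2% sucrose had been moved for 4 h to medium with another sole carbon source. The soluble sources, each at 2 mM, were cellobiose, maltose and trehalose (disaccharides of glucose), fructose, mannose and sorbose (hexoses), xylose (a pentose) and glycerol. The other 2 sources were Avicel (crystalline cellulose, for which the sources used here give both 1% and 2% w/v) and the polysaccharide xyloglucan (1% w/v). Each source had 3 replicate libraries, 30 in all. No culture starved of carbon is among the libraries analysed here, and each source was compared with the mean of the other 9 and with each of the others in turn.

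In fermentation, pyruvate from glycolysis loses carbon dioxide through pyruvate decarboxylase to give acetaldehyde, and alcohol dehydrogenase reduces acetaldehyde to ethanol, which regenerates the NAD+ that glycolysis needs. Aldehyde dehydrogenase takes acetaldehyde the other way, to acetate, which acetyl-CoA synthetase turns into acetyl-CoA, while the pyruvate dehydrogenase complex makes acetyl-CoA from pyruvate directly in the mitochondrion. In *N. crassa* the pyruvate decarboxylase protein is also known as the subunit of cytoplasmic filaments, from which *cfp* has its name.

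The libraries held 13018483 to 21925749 counts on genes. Levels are given as CPM, counts per 1000000 counts on genes, scaled by trimmed-mean (TMM) factors of 0.893 to 1.06, and 2.43 to 8.79% of the reads of a library fell outside genes. In 29 of the 30 libraries the log2 CPM over all genes correlated best with another library of the same source. The exception was mannose replicate 2, whose r was 0.981 with fructose replicate 3 and 0.977 and 0.973 with the other mannose libraries. For the 4 genes, mannose against the mean of the other 9 is given with and without it, as is fructose against mannose. Other pairs with mannose are given with all libraries only. No hyphal marker list was used to check the mycelial label. The 4 conidial genes looked at (*con-6*, *con-8*, *con-10* and the hydrophobin gene *eas*) were read in every source, with a summed level from 1107 to 1599 CPM in cellobiose and from 16464 to 28106 CPM in Avicel. In such bulk RNA, fewer cells that express a gene and less of its RNA per cell cannot be told apart.

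Pyruvate decarboxylase, the enzyme that commits pyruvate to the pathway, had the widest range of the 4 genes. The *cfp* gene lies on linkage group VII at 3384904 to 3387654 (RefSeq annotation of assembly NC12). Its level in cellobiose was 5054, 3503 and 4069 CPM in replicates 1 to 3 (4208 ± 785, mean ± SD, n = 3), and in trehalose 3769, 3275 and 1522 CPM (2856 ± 1181). These 6 libraries were the highest of the 30. A middle band followed, with 1211, 884 and 630 CPM in glycerol and 1009, 540 and 1100 CPM in maltose. Xylose stood at 1002, 884 and 469 CPM, and sorbose at 639, 542 and 470 CPM. The 4 sources of this band overlapped one another. Fructose was the most variable source, at 1255, 226 and 367 CPM, so that its replicates spanned a 5.55-fold range. Xyloglucan had 189, 246 and 366 CPM. At the bottom were Avicel, with 122, 110 and 46.0 CPM (92.6 ± 40.8), and mannose, with 106, 82.4 and 52.0 CPM (80.2 ± 27.2). None of the Avicel or mannose libraries reached the lowest library of any other source.

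With the sources ordered by their mean log2 CPM, 8 of the 9 steps between neighbours in *cfp* level were not called, that is, they did not pass both a 2-fold difference and a Benjamini-Hochberg adjusted p under 0.01 in edgeR's quasi-likelihood test. The step that passed lay between trehalose and glycerol (3.14-fold, adjusted p = 0.0078). Cellobiose and trehalose did not separate (1.47-fold, adjusted p = 0.34), nor did Avicel and mannose (1.16-fold, adjusted p = 0.73), and the step from xyloglucan down to Avicel, 2.88-fold with no overlap of libraries, missed the threshold at an adjusted p of 0.014. From end to end, cellobiose stood 52.5-fold above mannose. The spread of the 10 source means of *cfp*, 5.76 on the log2 scale, was wider than that of 98.3% of the genes tested, whose median spread was 1.31.

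**Figure D1:**
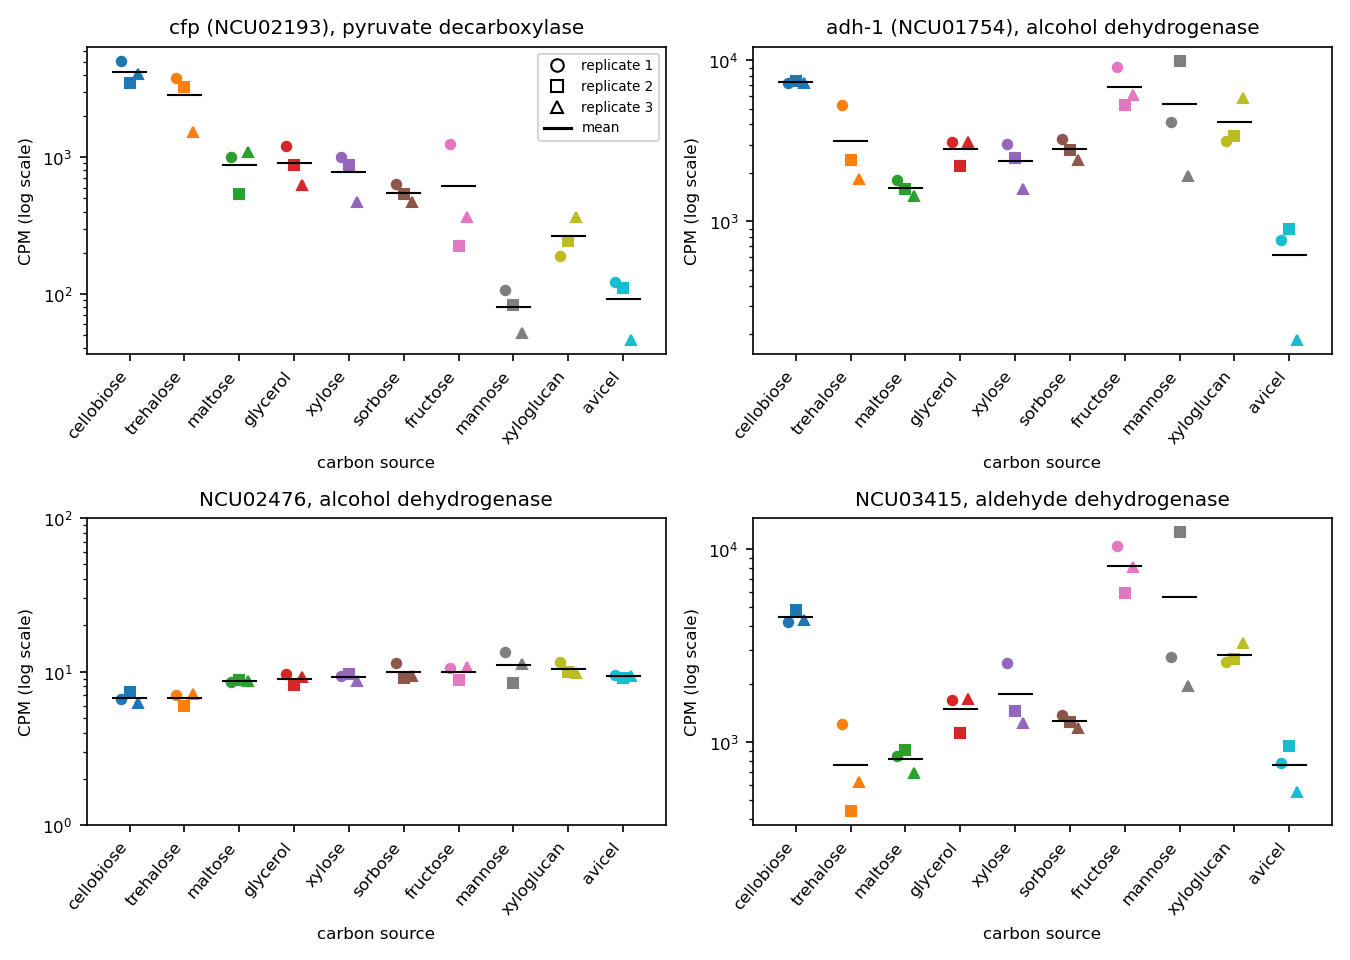
Level of each gene (CPM, log axis) in the 30 libraries by carbon source, with 1 point for each library, its shape giving the replicate number, and a line at the mean of 3. The *cfp* libraries run from 46.0 CPM in Avicel to 5054 CPM in cellobiose, while those of NCU02476 stay between 5.95 and 13.4 CPM.

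Alcohol dehydrogenase from *adh-1* was high in most sources and low in cellulose. The gene lies on linkage group II at 2539541 to 2541938. In cellobiose its level was 7280, 7392 and 7278 CPM (7317 ± 65.4, n = 3), the tightest triplet of the gene, and in fructose 9136, 5246 and 6108 CPM (6830 ± 2044). The mannose libraries were far apart, at 4139, 9906 and 1908 CPM, a 5.19-fold range that took in both the highest library of all and one lower than every glycerol library. Xyloglucan followed at 3167, 3413 and 5832 CPM, and trehalose at 5258, 2392 and 1838 CPM. Glycerol, with 3131, 2223 and 3132 CPM, and sorbose, with 3259, 2794 and 2420 CPM, were at 2828 and 2825 CPM on average. Those 2 means could not be separated. Xylose had 3044, 2483 and 1578 CPM, and maltose had 1815, 1591 and 1448 CPM. Avicel was lowest, at 770, 895 and 183 CPM (616 ± 380), and its 3 libraries lay below the other 27. None of the 9 steps between neighbouring sources was called for *adh-1*, and the largest, from maltose down to Avicel, was 2.63-fold with no overlap of libraries (adjusted p = 0.02).

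The last 252 bases of *adh-1* overlap the neighbouring gene NCU01753 (II, 2541687 to 2544442), and the strand setting of the counting is not given in the sources used here, so reads in that stretch could have been left out as ambiguous. The source means of NCU01753 ran from 19.6 to 53.1 CPM, and over the 10 source means its r with *adh-1* was 0.20.

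The aldehyde dehydrogenase gene NCU03415 (II, 807643 to 809921) was highest in fructose, at 10422, 5934 and 8025 CPM (8127 ± 2246, n = 3). In cellobiose it had 4193, 4847 and 4276 CPM (4439 ± 356), below each of the fructose libraries. Mannose again held the widest replicates, with 2769, 12261 and 1948 CPM, a 6.29-fold range, and replicate 2 was the highest of the 30 libraries. Xyloglucan gave 2597, 2681 and 3245 CPM and xylose 2583, 1454 and 1263 CPM. Glycerol gave 1644, 1112 and 1672 CPM and sorbose 1374, 1274 and 1190 CPM. The xylose and glycerol libraries overlapped, as did those of glycerol and sorbose. At the low end were maltose, with 850, 914 and 694 CPM, Avicel, with 782, 959 and 555 CPM, and trehalose, with 1237, 439 and 621 CPM. These low sources overlapped. None of the 9 steps between neighbours was called, though fructose stood above cellobiose with no overlap (1.83-fold, adjusted p = 0.095).

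NCU02476, the other alcohol dehydrogenase gene (I, 2438853 to 2440919), was read at a low and even level, from 5.95 CPM in trehalose replicate 2 to 13.4 CPM in mannose replicate 1, which came from 86 to 226 reads a library. Its source means ran from 6.70 CPM in trehalose (7.0, 5.9 and 7.1 CPM) and 6.73 CPM in cellobiose (6.6, 7.4 and 6.2 CPM) to 11.0 CPM in mannose (13.4, 8.4 and 11.3 CPM). The 6 trehalose and cellobiose libraries lay below all others. The spread of its source means, 0.69 on the log2 scale, was wider than that of 15.9% of the genes tested.

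Replicates of a source differed more for the 3 abundant genes than for most genes. The biological coefficient of variation estimated by edgeR was 0.403 for *cfp*, 0.403 for *adh-1* and 0.377 for NCU03415, each larger than that of 98.4% of the genes tested or more, against a median of 0.124. For NCU02476 it was 0.0924. The replicates of *cfp* were more than 2-fold apart in 6 of the 10 sources, those of *adh-1* and NCU03415 in 3 each and those of NCU02476 in none.

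All 4 genes differed among the 10 sources in edgeR's quasi-likelihood F test, with adjusted p-values of 1.1e-09 for *cfp*, 3.3e-05 for *adh-1*, 0.00022 for NCU02476 and 1e-07 for NCU03415. Among all genes tested, 93.1% passed the same threshold of 0.01, so this count says little about the 4 genes. When each source was set against the mean of the other 9, 14 of the 40 comparisons of a gene and a source were called, 7 of them higher and 7 lower. Over all genes, the share called in such a comparison ran from 3.26% in xylose to 18.0% in trehalose. These comparisons share libraries, since each source is part of the reference of the others.

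Cellobiose was called higher for 3 of the 4 genes, where 17.7% of all genes were called in either direction. The log2 fold change was 3.15 for *cfp* (SE 0.28, adjusted p = 7.5e-10), 1.41 for *adh-1* (SE 0.32, adjusted p = 0.00039) and 1.29 for NCU03415 (SE 0.30, adjusted p = 5e-04). Avicel, which is a polymer of cellobiose units, was called lower for the same 3 genes, against 10.6% of all genes. The values were -2.97 for *cfp* (SE 0.46, adjusted p = 8.5e-06), -2.55 for *adh-1* (SE 0.45, adjusted p = 3.9e-05) and -1.52 for NCU03415 (SE 0.38, adjusted p = 0.0016), of which the last was no longer called without Avicel replicate 1 (adjusted p = 0.01) or without replicate 3 (adjusted p = 0.02). The conidial markers moved the other way, with 4 of 4 lower in cellobiose and 2 of 4 higher in Avicel, of which *eas* was at 0.95 and not called without Avicel replicate 2, and their part in these results was not tested.

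Trehalose and mannose each had genes that moved in opposite directions. In trehalose, where 18.0% of all genes were called, *cfp* rose by 2.53 on the log2 scale (adjusted p = 4.2e-08) and NCU03415 fell by 1.52 (adjusted p = 0.0012), a call that was lost without trehalose replicate 2 (adjusted p = 0.019) or replicate 3 (adjusted p = 0.013). In mannose, where 13.9% were called, *cfp* fell by 3.20 (adjusted p = 2.8e-06) and NCU03415 rose by 1.68 (adjusted p = 2e-05). Without mannose replicate 2 the fall of *cfp* was 3.22 (adjusted p = 5.6e-05), whereas NCU03415 was at 0.42 (adjusted p = 0.16) and was not called. Its mean in mannose went from 5659 to 2358 CPM when that library was left out. The *adh-1* value in mannose, 0.90, was not called with all libraries, was 0.09 without replicate 2 and became a call without replicate 3 (1.30, adjusted p = 0.0025). Of the 4 conidial markers, 3 were higher in mannose (summed level 11211 to 17637 CPM) and 2 were lower in trehalose (5610 to 10127 CPM), and their part in these results was not tested either.

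In fructose 2 of the 4 genes were called higher, with 7.53% called over all genes: NCU03415 rose by 2.26 (adjusted p = 3.1e-07) and *adh-1* by 1.30 (adjusted p = 0.0015), the latter at 1.05 and not called without fructose replicate 1 (adjusted p = 0.028). The *cfp* value in fructose was 0.07 with a 95% interval of -0.66 to 0.80, and it was -0.97 (adjusted p = 0.04) without fructose replicate 1. Maltose and xyloglucan had 1 call each. NCU03415 fell by 1.41 in maltose (8.23% of genes called, adjusted p = 0.0034), which was not called once any 1 of the 3 maltose libraries was left out (adjusted p up to 0.028). In xyloglucan *cfp* fell by 1.27 (10.5% of genes called, adjusted p = 0.0092), and this call was lost in 20 of the 30 fits that left out a single library.

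No gene of the 4 was called in glycerol, sorbose or xylose, where 5.09, 7.15 and 3.26% of all genes were. None of them had an unadjusted p under 0.05 in those sources either, and DESeq2 also called 0. NCU02476 was called in 0 of the 10 sources because its differences were under 2-fold. Its adjusted p was nevertheless under 0.01 in cellobiose (-0.47, adjusted p = 0.00044), trehalose (-0.47, adjusted p = 0.00047) and mannose (0.32, adjusted p = 0.0056). With single libraries left out, the mannose value ran from 0.17 to 0.48 with an adjusted p up to 0.18. It was 0.48 without mannose replicate 2 (adjusted p = 0.00017). In trehalose the adjusted p rose to at most 0.011 in such fits.

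**Figure D2:**
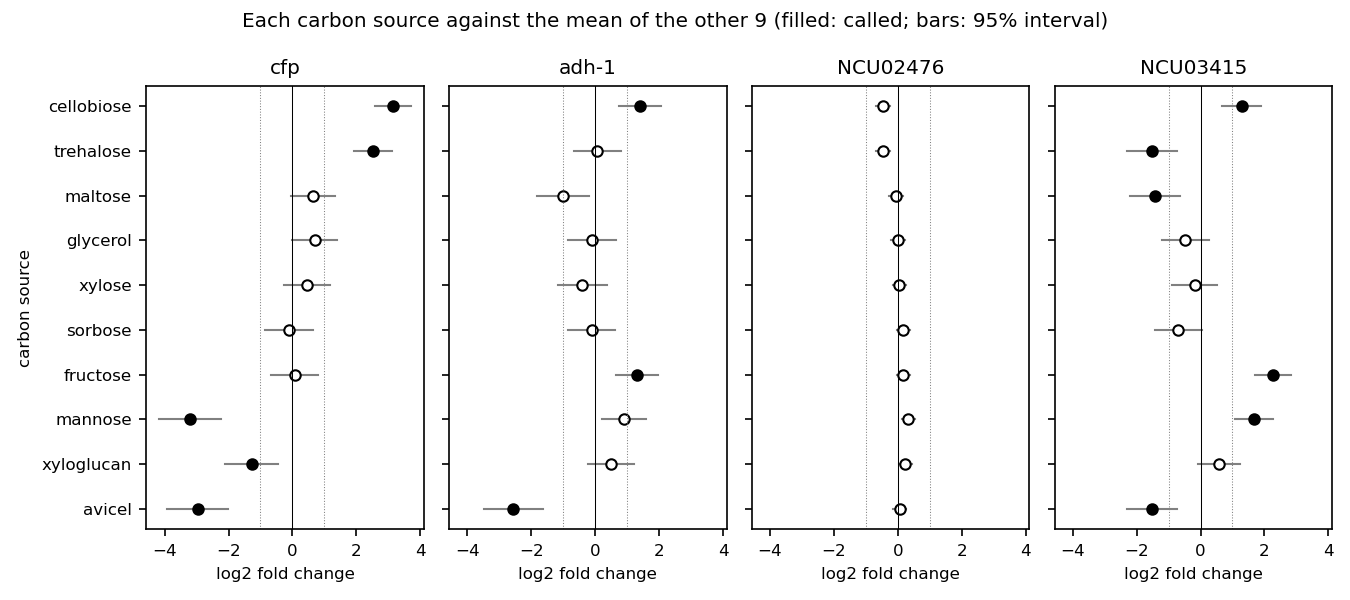
Log2 fold change of each gene in each carbon source against the mean of the other 9 sources, with 95% intervals as bars and called comparisons as filled points; dotted lines mark 2-fold. The *cfp* points run from -3.20 in mannose to 3.15 in cellobiose, and all 10 points of NCU02476 lie inside the 2-fold lines.

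Over the 45 pairs of sources, *cfp* was called in 28, NCU03415 in 20, *adh-1* in 12 and NCU02476 in 0, where 16.3% of all gene and pair combinations were called. For NCU02476, 12 pairs passed on the adjusted p alone and 18 had an unadjusted p under 0.05, and its largest pair difference was 1.64-fold. The 12 pairs of *adh-1* were of a few kinds. Avicel was the lower source in 8 of them, maltose was the lower source in 3, against cellobiose, fructose and mannose, and the remaining pair was cellobiose over xylose (3.09-fold, adjusted p = 0.0081). Mannose over maltose (3.29-fold, adjusted p = 0.0042) included mannose replicate 2, at 9906 CPM. Mannose replicate 3, at 1908 CPM, was close to maltose replicate 1, at 1815 CPM. Avicel and maltose did not differ for *adh-1* by the same criteria (2.63-fold, adjusted p = 0.02).

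Cellobiose against Avicel sets the soluble dimer against the insoluble polymer, and 27.6% of all genes were called in that pair. Cellobiose was 45.4-fold higher for *cfp* (adjusted p = 1.7e-08), 11.9-fold higher for *adh-1* (adjusted p = 2.9e-06) and 5.80-fold higher for NCU03415 (adjusted p = 5.3e-05). Cellobiose also stood above maltose, another glucose disaccharide at the same concentration, with 21.5% of genes called in the pair. The folds were 4.77 for *cfp* (adjusted p = 0.00045), 4.52 for *adh-1* (adjusted p = 0.00064) and 5.42 for NCU03415 (adjusted p = 1e-04). Trehalose and maltose, by contrast, differed in 0 of the 4 genes by both criteria, with 4.92% of genes called. The *cfp* level was 3.23-fold higher in trehalose with no overlap of libraries and an adjusted p of 0.011, *adh-1* was 1.95-fold higher in trehalose (adjusted p = 0.13) and NCU03415 1.07-fold higher in maltose (adjusted p = 0.88).

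The hexoses fructose and mannose differed in *cfp*, which was 7.69-fold higher in fructose (adjusted p = 0.00029), in a pair where 2.92% of all genes were called. For *adh-1* and NCU03415 the folds were 1.28 (adjusted p = 0.66) and 1.44 (adjusted p = 0.47), with 95% intervals on the log2 scale of -0.64 to 1.36 and -0.41 to 1.45. Without mannose replicate 2, fructose was 3.45-fold higher for NCU03415 (adjusted p = 0.00085), which was then a call, 2.26-fold higher for *adh-1* (adjusted p = 0.085) and 7.81-fold higher for *cfp* (adjusted p = 0.0012). Fructose replicate 1 weighed on *cfp*, since without it the fructose mean went from 616 to 297 CPM and the fold over mannose was 3.76 (adjusted p = 0.0048), still a call. Over all genes the number called in this pair was 248 with mannose replicate 2 and 401 without mannose replicate 2.

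Levels of different genes were compared as CPM per kilobase of annotated gene. On that scale the mean over the 30 libraries was 1544 for *adh-1*, 1226 for NCU03415, 409 for *cfp* and 4.40 for NCU02476. Per kilobase *adh-1* was 16.9 to 1011 times as high as NCU02476 within a library, so most reads of this pair of alcohol dehydrogenase genes came from *adh-1*. The ratio of *cfp* to *adh-1* within a library had its highest source median in trehalose (0.72, from 0.62 to 1.19) and its lowest in mannose (0.0224, from 0.00725 to 0.0237). The sorbose libraries were nearly equal in it, from 0.169 to 0.171. Trehalose replicate 2 was the single library in which *cfp* was above *adh-1*.

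The ratio of the aldehyde to the alcohol dehydrogenase, NCU03415 to *adh-1* per kilobase, was above 1 in all 3 fructose libraries (1.19 to 1.38) and all 3 Avicel libraries (1.07 to 3.18). In mannose it was 0.70 to 1.30. All libraries of the other 7 sources were below 1, and trehalose was lowest, at 0.19 to 0.36, with none of its libraries reaching those of another source. The ratio of *cfp* to NCU03415 was highest in trehalose, at 2.03 to 6.18, and it was 0.00557 to 0.0318 in mannose. These ratios are descriptions of the libraries and were not tested.

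**Figure D3:**
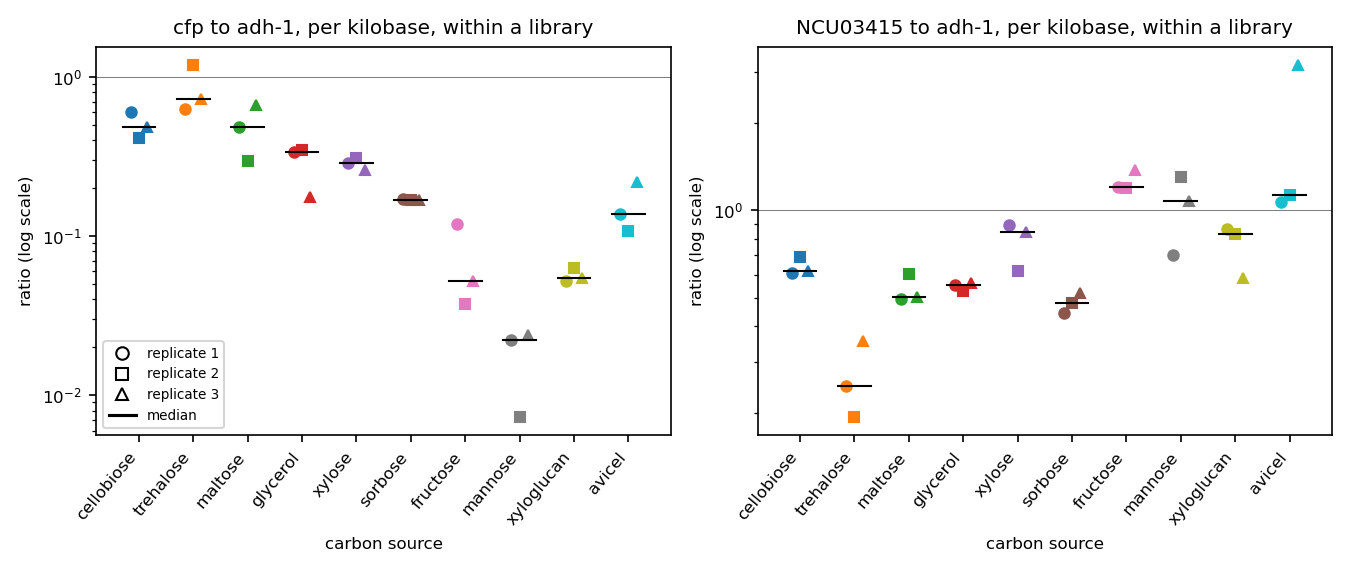
Ratio of *cfp* to *adh-1* (left) and of NCU03415 to *adh-1* (right) per kilobase within each of the 30 libraries (log axis) by carbon source, with a point for each library and a line at the median of 3. The *cfp* to *adh-1* median falls from 0.72 in trehalose to 0.0224 in mannose, and the fructose and Avicel libraries lie above 1 on the right.

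The patterns of *adh-1* and NCU03415 over the 10 sources were the most alike among the 4 genes. The r of the source means of log2 CPM was 0.79 between *adh-1* and NCU03415 and 0.41 between *cfp* and *adh-1*, and -0.07 between *cfp* and NCU03415. NCU02476 ran against *cfp* at -0.84 and had 0.28 with NCU03415 and -0.10 with *adh-1*. Replicates of one source also deviated together, since the r of the 30 deviations from the source means was 0.82 between *adh-1* and NCU03415 and 0.66 between *cfp* and *adh-1*. Without mannose replicate 2 these deviations gave 0.79 and 0.74. The points share libraries and their scaling.

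Among the other genes examined, *acu-3*, the isocitrate lyase of the glyoxylate cycle, followed NCU03415 both between and within sources, with an r of 0.87 over the source means and 0.93 over the deviations. In mannose, *acu-3* ran from 88.1 to 1938 CPM, and replicate 2 was its highest library too. Leaving that library out gave 0.86 and 0.85. In fructose *acu-3* was at 432 to 1554 CPM and in sorbose at 33.6 to 39.6 CPM, while NCU03415 in sorbose was at 1190 to 1374 CPM.

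**Figure D4:**
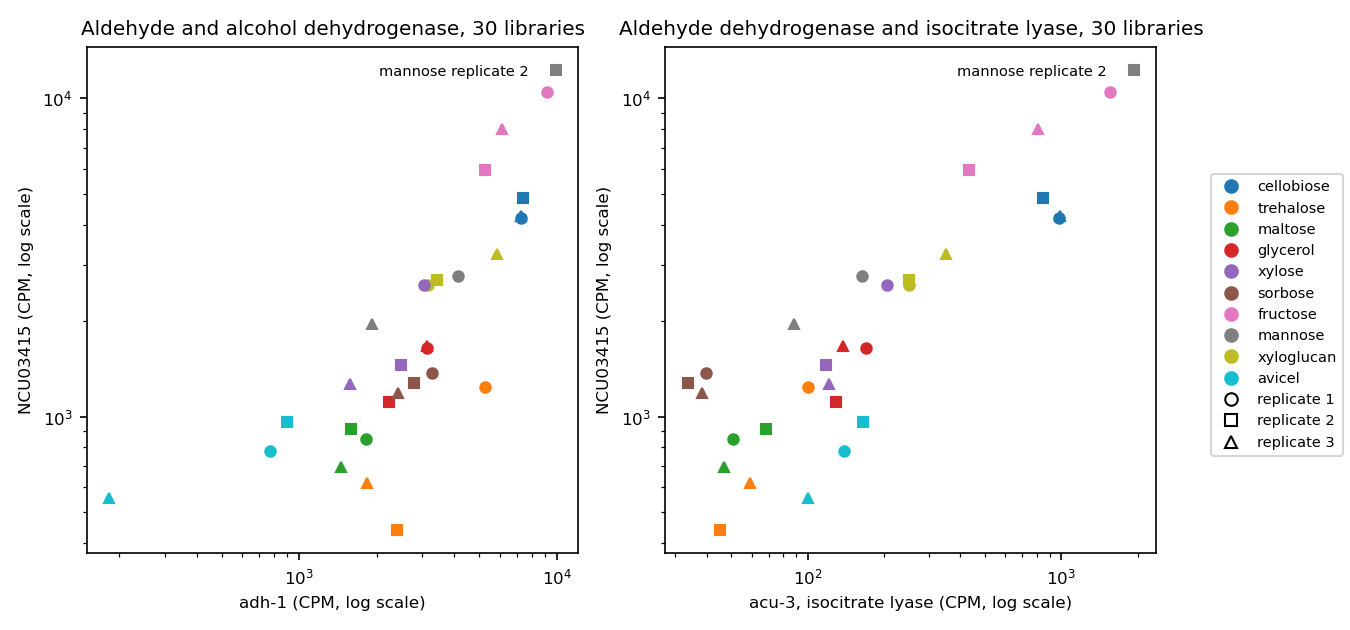
NCU03415 against *adh-1* (left) and against *acu-3* (right) in CPM on log axes, with a point for each of the 30 libraries, coloured by carbon source and shaped by replicate number. Mannose replicate 2 is at the top right of both panels, at 12261 CPM of NCU03415, away from the other 2 mannose libraries at 2769 and 1948 CPM.

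The steps around acetaldehyde were read from short lists of genes. Of 3 lower glycolysis genes that lead to pyruvate, 2 were higher in cellobiose, 2 in maltose and 2 in trehalose, and 2 were lower in Avicel and 2 in mannose. Without mannose replicate 2 the count in mannose was 1, as *ace-8* (NCU06075) was then at -0.90. The shares of all genes called in these sources were 17.7, 8.23, 18.0, 10.6 and 13.9%. In fructose 0 of the 3 were called, where 7.53% of all genes were. Without fructose replicate 1, *gpd-1* was called lower there at -1.04 (adjusted p = 0.00062) and *ace-8* at -1.35 (adjusted p = 5.4e-06). The list's median log2 fold change was 1.32 in cellobiose and -1.10 in Avicel, where all genes had medians of -0.04 and -0.04. The glyceraldehyde-3-phosphate dehydrogenase gene *gpd-1* (NCU01528) was at 1.52 in cellobiose (adjusted p = 3.7e-08) and at -1.02 in mannose (adjusted p = 0.00022), the latter from -0.84 to -1.46 and not always called when a mannose library was left out. Its r with *cfp* over the source means was 0.89, that of the enolase gene *emp-7* (NCU10042) was 0.94 and that of the pyruvate kinase gene *ace-8* (NCU06075) was 0.67. In maltose, where *cfp* was not called, *gpd-1* was at 1.05 (adjusted p = 2.6e-05), and at 0.93, under 2-fold, without maltose replicate 1. In trehalose *gpd-1* was at 1.19 (adjusted p = 2.1e-06), and at 0.99, also under 2-fold, without trehalose replicate 1.

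Of 4 genes for the pyruvate dehydrogenase complex, which uses the same pyruvate, 2 were lower in fructose, where 7.53% of all genes were called, with a list median of -0.93. They were *ace-2* (NCU06482) at -1.01 (adjusted p = 5.6e-07) and *ace-3* (NCU03004) at -1.70 (adjusted p = 6.6e-06), both for the E1 component. Without fructose replicate 1, *ace-4* (NCU07659) was called lower in fructose as well, at -1.20 (adjusted p = 0.00016). The *ace-3* gene was also higher in trehalose, at 1.41 (adjusted p = 7.5e-07), and in maltose, at 1.09 (adjusted p = 7.3e-05). In the remaining 7 sources 0 of the 4 were called, with list medians from -0.71 in mannose and -0.62 in Avicel to 0.50 in cellobiose. The *ace-2* call lay close to the 2-fold threshold and was lost in several fits that left out a library (-0.93 without fructose replicate 3), and the *ace-3* call in maltose was lost without maltose replicate 1 (0.86).

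For the use of acetate, 3 of 3 genes rose in cellobiose (17.7% of all genes called), which were *acu-5* (NCU06836, acetyl-CoA synthetase), with 840 ± 39.2 CPM (n = 3) against 269 CPM over the other sources (edgeR adjusted p = 1.2e-06), *acu-3* (NCU04230), which stood at 2.53 on the log2 scale (adjusted p = 3.3e-06) and *acu-6* (NCU09873, phosphoenolpyruvate carboxykinase) at 1.38 (adjusted p = 3.5e-06). In Avicel 2 of 3 were lower (10.6% of all genes called, list median -2.22), with *acu-5* at -2.22 (adjusted p = 1.5e-05). Sorbose and maltose also had 2 lower each, with 7.15 and 8.23% of all genes called, of which *acu-3* in sorbose was at -2.64 (adjusted p = 0.00092), while *acu-3* in maltose, at -2.01 (adjusted p = 0.0051), was not called once any 1 maltose library was left out (adjusted p up to 0.034). In mannose *acu-6* was higher, at 1.33 (adjusted p = 7.1e-06), and at 1.31 without replicate 2 (adjusted p = 0.00012). The call of *acu-3* in mannose, at 2.13 (adjusted p = 5.3e-05), rested on replicate 2, without which its mean went from 730 to 126 CPM and its value turned to -0.40 (adjusted p = 0.28). The *acu-5* value there was -0.17 (adjusted p = 0.63) with all libraries and -1.22 (adjusted p = 0.00059), a call, without replicate 2. Xyloglucan, glycerol and fructose had 1 higher each (10.5, 5.09 and 7.53% of all genes called), trehalose and xylose 0 (18.0 and 3.26%). In trehalose *acu-3*, at -1.68 (adjusted p = 0.01), just missed the threshold and was called lower in some fits that left out a fructose or mannose library. There *acu-6*, at -0.94 (adjusted p = 0.0027), was under 2-fold, and it was called at -1.08 (adjusted p = 0.0061) without trehalose replicate 2.

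The genes with the pattern most like each of the 4 were sought among 6759 genes with a mean of at least 10 CPM, by r over the 10 source means. For *cfp* they were NCU07257 (0.97), *pdx-1* (NCU06550, 0.97), a gene of vitamin B6 synthesis, and NCU01753 (0.96), the gene that overlaps *adh-1*. Within sources NCU07257 and *pdx-1* also deviated with *cfp*, at 0.83 and 0.90, while NCU01753 did not, at -0.08. For *adh-1* the closest were NCU07808 (0.94), NCU04750 (0.93) and NCU08946 (0.92). For NCU03415 they were NCU03303, NCU01347 and NCU04078, each at 0.96. For NCU02476 they were NCU16606, NCU06345 and NCU07730, at 0.98, 0.98 and 0.97. With 10 points and so many genes, such values are descriptions only.

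Because the share of reads outside genes differed between replicate numbers, the 14 called differences were also read within replicate 1 alone and within replicates 2 and 3. These are parts of the libraries that gave the calls, so the signs are no separate check. The values stood furthest apart for *cfp* in xyloglucan, at -2.18 in replicate 1 and -0.75 in the others, and for NCU03415 in mannose, at 0.46 and 1.62.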

How the data were processed

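RNA-seq counts of 30 libraries, 3 replicates of 10 carbon sources, were analysed. The authors mapped reads with TopHat and counted them per gene with HTSeq, and the deposited values are raw counts, 1 table per library (the submitters' processing notes list CASAVA 1.8, TopHat2 2.0.4 and HTSeq 0.6.0). The strand setting is not given in the sources used here. Each table ends with 5 totals of reads in no gene (outside genes, ambiguous, not unique and others), which made up 5.40 to 16.4% of reads and were kept out of library sizes. Groups and replicate numbers came from the sample labels.

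Genes were filtered with filterByExpr (8501 of 9758 kept), scaled by TMM, and fitted with edgeR 4.0.16 in R 4.3.3 in 1 quasi-likelihood model with a mean per source. A gene was called at a fold change over 2 and a Benjamini-Hochberg adjusted p under 0.01, adjusted over all genes of a comparison, the thresholds of the study. SEs are on the log2 scale, log2 CPM used a prior count of 1, and gene lengths and positions came from the RefSeq table of assembly NC12 (9757 of 9758 identifiers matched). The procedure was also run on counts simulated from the fitted model, with known changes planted in cellobiose. Such counts follow the model by construction, so they cannot show whether it holds for these data. Replicates of a source differed beyond counting noise (chi-square per degree of freedom at least 5.36), so none was taken as a second reading of the same library. These values cannot tell separate cultures from separate preparations of 1 culture. The paper describes its replicates as biological.

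Besides the 4 genes, the text names up to 4 genes from each pathway list and the 3 genes most like each of the 4. Values from the lists are mainly those of genes that were called in a source. The members and lists were chosen with earlier results of these data known. The alternatives were DESeq2 1.42.0, no TMM, no filter, a replicate block, a covariate for reads outside genes, a reference without cellobiose, a test against a 2-fold change, fits of single pairs and leaving out each library. The block was tried because the sources share replicate numbers. The fits without mannose replicate 2, those of the listed genes without single libraries and the deviations of single libraries were chosen after seeing the data. Protein and promoter sequences were not analysed here.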

Additional observations from a re-analysis of the deposited data

How the results depend on the processing

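The 4 genes varied across sources in every fit tried. None of the 40 comparisons of a gene and a source gained or lost a call with DESeq2, without TMM scaling, without the filter or with the covariate for reads outside genes. Without TMM the median of all genes in cellobiose moved to -0.22, from -0.04. The reference without cellobiose added *adh-1* in mannose (1.07, adjusted p = 0.0072) and took away *cfp* in xyloglucan (-0.93, adjusted p = 0.045). Leaving out each library in turn gave 12 to 15 calls against 14, 25 to 33 called pairs for *cfp*, 10 to 16 for *adh-1*, 19 to 24 for NCU03415 and 0 for NCU02476. The count of called pairs was smaller under a test against a 2-fold change, by the construction of that test, with 16 for *cfp*, 5 for *adh-1* and 11 for NCU03415. Fits of single pairs gave 26, 15 and 17.

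Libraries with the same replicate number had a mean r of 0.07 between their deviations (52 of 135 pairs over 0.1, lowest -0.33). Those with different numbers had a mean r of -0.04 (50 of 270 pairs over 0.1, lowest -0.45). As 11 of 30 libraries were nearest to one of their own number, the numbers were not taken as pairing. Whether the numbers mark a shared batch was not tested. With the replicate block 14 comparisons were called, as without it, and 31, 13, 0 and 20 pairs for *cfp*, *adh-1*, NCU02476 and NCU03415.

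Likeness of pattern depended on the measure. Spearman's rho over the source means was 0.76 for *adh-1* and NCU03415, 0.20 for *adh-1* and NCU02476 and 0.47 for NCU02476 and NCU03415. For *cfp* and *adh-1* it was 0.09, where Pearson's r was 0.41. The r of *cfp* and *adh-1* over the sources was 0.58, 0.02 and 0.59 within replicates 1, 2 and 3. The deviations of the 30 libraries gave 0.82 for *adh-1* and NCU03415, 0.38 for *cfp* and NCU03415, 0.13 for *cfp* and NCU02476, -0.14 for *adh-1* and NCU02476 and -0.23 for NCU02476 and NCU03415. The cause of these shifts was not tested. The smallest standard error of a difference between a pair of sources was 0.45 on the log2 scale for the 3 abundant genes, and NCU02476 rested on at most 226 reads a library.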

Other observations

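Some other alcohol, aldehyde and lactate dehydrogenase genes had source patterns of their own, and others were not called in any source. The alcohol dehydrogenase genes NCU06303 and NCU09035 and the aldehyde dehydrogenase gene NCU00378 were among those not called, with differences under 2-fold. The aldehyde dehydrogenase gene NCU09648 was at 215 ± 38.1 CPM in cellobiose (n = 3) and 17.7 CPM on average elsewhere (log2 fold change 3.68, edgeR adjusted p = 5e-19), while the aldehyde dehydrogenase gene NCU03348 was higher in fructose (1.34, adjusted p = 4.3e-07) and mannose (1.42, adjusted p = 8.2e-08) and lower in trehalose (-1.43, adjusted p = 4.1e-06), the directions in which NCU03415 was called there. In cellobiose, where NCU03415 was higher, NCU03348 was at -0.78 (adjusted p = 0.0017). Without mannose replicate 2, NCU03348 in mannose was at 0.96 and not called. Of the 4 further alcohol dehydrogenase genes, NCU04823, annotated as NADP-dependent, was at 189 ± 6.77 CPM in xylose (2.32, adjusted p = 9.5e-15) and at 12.7 ± 0.98 CPM in maltose (-2.01, adjusted p = 2.8e-10), and NCU11325 was higher in mannose (1.32, adjusted p = 5.6e-10), at 0.93 and not called without mannose replicate 2.

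Of 5 lactate dehydrogenase genes, 2 were lower in cellobiose and 2 in trehalose, and 2 were higher in mannose, where 17.7, 18.0 and 13.9% of all genes were called in either direction. NCU00780 and NCU08126 from this list were not called in any source with all libraries. The D-lactate dehydrogenase gene NCU02179 was at 76.6 ± 16.8 CPM in cellobiose (-2.36, adjusted p = 1.3e-10) and at 1081 ± 402 CPM in mannose (1.89, adjusted p = 1.1e-11), the reverse of the order of these sources for *cfp*. These genes were taken from the same lists, and no explanation of their patterns was tested.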
